A study of Mus musculus with 12 samples.

Results

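Plexins are transmembrane receptors for the semaphorins, a family of secreted and membrane-bound guidance proteins, and neuropilins are co-receptors that bind class 3 semaphorins and members of the vascular endothelial growth factor family. When a semaphorin binds, the part of the plexin inside the cell acts on small GTPases of the Ras and Rap families and on the actin cytoskeleton, so that a growth cone or a migrating cell turns, retracts or lets go. In skin the same receptors are known from the sensory axons that end in the epidermis, from blood vessels, from keratinocytes and from dendritic cells. The 9 receptor genes described here are Plxna1, Plxna2, Plxna4, Plxnb1, Plxnb2, Plxnc1, Plxnd1, Nrp1 and Nrp2, taken by their symbols from the 32285 genes of the deposited tables. The remaining plexins of the annotation, Plxna3 and Plxnb3, are given beside them. On GRCm38 Plxnc1 lies at chr10:94790866-94944835, Plxnd1 at chr6:115954811-115995005, Plxna1 at chr6:89316314-89362620, Plxna2 at chr1:194618218-194816869, Plxna4 at chr6:32144268-32588192, Plxnb1 at chr9:109095389-109119917, Plxnb2 at chr15:89155549-89180788, Nrp1 at chr8:128358604-128503363 and Nrp2 at chr1:62703285-62818695.

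The cells came from the epidermis of glabrous hind paw skin of wild-type C57BL/6J mice. The mice entered the diets at 6 to 8 weeks of age and stayed on them for 10 weeks, to an age of 16 to 18 weeks. The regular diet (RD) held 11% fat and the high-fat diet (HFD) 42%, and 3 male and 3 female mice received each diet, 1 library per mouse. The high-fat diet is used as a model of painful diabetic neuropathy, and the question asked of the receptors here is where in the epidermis they were transcribed and whether the diet moved their levels. Each library was a droplet-based 3′ single-cell RNA-seq library in which a unique molecular identifier (UMI) counts each captured transcript once. Dissociated epidermis holds no cell bodies of sensory neurons, so the levels below are those of skin cells alone.

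The 12 libraries held 7370 to 16254 barcodes and 134449247 to 194673581 UMIs each. All barcodes of a library together held 15059 to 29940 UMIs of the 9 receptors. After limits on genes and mitochondrial UMIs, 126375 cells remained. Any pair of the libraries shared 15 to 70 barcodes, at most 0.564% of the smaller. Males and females were clustered separately, with the 9 receptors left out of the genes used for clustering. The clusters named from marker genes were basal, G2 or mitotic, upper suprabasal, terminally differentiated and migratory (Krt79, Defb6) keratinocytes, Langerhans cells (LCs) and T cells. The remaining clusters are called by a leading gene, to keep apart those that share a marker list, which gives the Il34, Endou and Tm4sf1 clusters in both sexes, a Cdkn3 cluster in males and a Pmel cluster in females. The Endou cluster matched spinous keratinocytes with 8 of 8 markers in each sex, the male Il34 cluster with 4 of 8, the Tm4sf1 cluster matched migratory keratinocytes with 3 of 8 in each sex, and the Pmel cluster matched G2 or mitotic keratinocytes with 12 of 12. The Cdkn3 and the female Il34 cluster matched no list. LCs and T cells were counted only when their share of keratin UMIs was under 10% of the median keratinocyte of the same library. This left 1051 of 1374 LCs in males and 1800 of 2202 in females, whose keratin level was 2.14% and 1.7% of that of keratinocytes, and 147 male and 261 female T cells at 3.38% and 2.59%. All 9 Langerhans and all 10 T cell markers were raised in their clusters, and the fibroblast markers Col1a1, Col1a2, Col3a1, Lum and Pdgfra were at 0 in the LCs of every group. Of 6 endothelial markers, Cdh5 and Kdr were at 0 in the LCs of every group and the list summed to at most 3.69 CPM in males and to 4.44 to 12.9 in females. The Schwann cell list summed to 15.7 to 35.7 CPM in male LCs, with Sox10 and Prx at 0, and to 49.9 to 85.9 in female LCs, with UMIs of all 5 markers. Of 5 macrophage markers, Mrc1 and Cd163 were at 0 in LCs of RD males, and the list summed to 656 to 1256 CPM in male LCs and to 230 to 314 in female LCs. The part of these lists in the receptor levels was not tested.

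Levels are in CPM, the gene's UMIs in 1000000 UMIs of the population in a mouse, as mean ± SD over the 6 mice of a sex unless said otherwise. Counts from the 3′ end carry no length scale, so levels are compared between populations and not between genes. The libraries of the sexes carry different versions of the counting software, so male and female values stand side by side without a test.

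RefSeq promoters on GRCm38.p6 were at hand for 7 of the 9 genes, and those of Plxnc1 and Plxnd1 are shown because these were the receptors most raised in LCs against basal cells. Each line holds the 250 bases before the annotated start and is written 5′ to 3′ on the gene's own strand. Capitals mark GAGGAAG, letters of the kind bound by the myeloid factor PU.1, searched on both strands.
Plxnc1, chr10:94944846-94945095, minus strand: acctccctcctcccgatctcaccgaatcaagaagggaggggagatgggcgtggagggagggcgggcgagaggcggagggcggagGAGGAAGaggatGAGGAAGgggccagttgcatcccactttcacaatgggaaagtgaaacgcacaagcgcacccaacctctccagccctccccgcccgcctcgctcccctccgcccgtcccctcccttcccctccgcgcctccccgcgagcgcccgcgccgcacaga
Plxnd1, chr6:115995006-115995255, minus strand: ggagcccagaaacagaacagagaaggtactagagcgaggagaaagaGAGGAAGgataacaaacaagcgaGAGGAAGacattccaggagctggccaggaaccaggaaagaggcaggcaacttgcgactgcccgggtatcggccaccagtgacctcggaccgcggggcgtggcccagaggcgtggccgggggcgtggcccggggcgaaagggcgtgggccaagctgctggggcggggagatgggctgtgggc
Each promoter held the letters at 2 places. Among the other receptors with a promoter, Nrp1 held them once, and Plxna2, Plxnb1, Plxnb2 and Nrp2 not at all. Of 32851 RefSeq promoters of the same length, 10.6% held them. The letters were chosen after the levels were known, and a match is a description of the sequence and not a bound site. All 7 genes had GC-rich promoters of 62.8 to 75.2% GC, where the median promoter had 52.4%, and each held at least 1 GC box (GGGCGG), which 32.7% of all promoters held. None held TATAAA, present in 12.4% of promoters, or the AP-1 letters TGANTCA, present in 6.75%.

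Plxnc1, the receptor of the membrane-anchored semaphorin Sema7a, had by far its highest level in LCs. Its level in LCs was 117 ± 18.8 CPM in males and 597 ± 34.5 in females. The mice ranged from 92.6 to 143 with a median of 121 in males, and from 560 to 659 with a median of 590 in females. No mouse of either sex came near these levels in any other population. T cells held 1 Plxnc1 UMI in 6 male mice, which is 3.98 CPM with an exact 95% Poisson interval of 0.101 to 22.2, and 8 UMIs in female mice, 9.41 CPM with an interval of 4.06 to 18.5. These intervals, like the others on counts below, cover counting error only. In keratinocyte clusters the level was at most 0.302 ± 0.310 in males and, outside the Pmel cluster, 0.793 ± 1.13 in females. The female Pmel cluster stood at 9.86 ± 6.38. Melanocyte markers (Dct, Pmel, Tyrp1, Mlana, Tyr) summed to 45.9 to 603 CPM per mouse there, and in a finer clustering 30 female cells led by Ccer2, Dct and Pmel held 287 ± 258 CPM of Plxnc1. The part of these cells in the level of the whole Pmel cluster was not tested.

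Plxna1, a receptor of class 3 and class 6 semaphorins that in dendritic cells acts with the adaptor encoded by Tyrobp, was highest in LCs but present throughout the living epidermis. LCs held 61.8 ± 10.6 CPM in males and 52.7 ± 10.6 in females. Migratory keratinocytes came next among the keratinocytes, with 24.1 ± 2.08 and 29.6 ± 1.82. Basal cells held 16.4 ± 1.83 and 24.7 ± 1.23. LCs were above migratory cells in 6 of 6 mice of each sex. The level fell towards the surface, to 3.39 ± 0.786 and 12.6 ± 1.59 in upper suprabasal cells and to 2.33 ± 0.955 and 5.36 ± 2.76 in terminally differentiated cells. In the test given below, the female fall from basal to terminally differentiated cells did not pass.

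Plxnd1, the receptor that binds Sema3e without a neuropilin, was an immune-cell transcript in these data. T cells had the highest mean, 68.5 ± 39.8 CPM from 17 UMIs in males and 38.8 ± 17.9 from 33 UMIs in females. The pooled exact intervals were 39.4 to 108 and 26.7 to 54.5 CPM. One male HFD mouse had no Plxnd1 UMI in its T cells, and the remaining 11 mice all had some. LCs held 18.9 ± 8.11 and 19.7 ± 3.64 CPM, and basal cells 0.782 ± 0.162 and 1.65 ± 0.315. Keratinocyte clusters stayed at or under 1.49 in males and 2.93 in females.

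Plxnb1, a receptor of Sema4d that associates with the kinases encoded by Met and Erbb2, stepped down with keratinocyte stage. Basal cells held 29.9 ± 3.41 CPM in males, with mice from 26.0 to 35.5, and 19.1 ± 1.44 in females, with mice from 17.7 to 21.6. Upper suprabasal cells held 4.72 ± 0.989 and 3.78 ± 0.432. The ranges of the mice in basal and upper suprabasal cells lay far apart in both sexes, and between them came the G2 or mitotic cells (26.3 and 16.1), the Il34 cluster (16.7 and 11.9) and the Endou cluster (10.1 and 6.85). LCs held 1 Plxnb1 UMI in males, 0.232 CPM with an interval of 0.00588 to 1.29, and 3 in females, 0.256 CPM with an interval of 0.0527 to 0.747. LCs above the keratin limit held 13.9 CPM in males and 8.83 in females.

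Plxnb2, a broadly expressed receptor of Sema4c and Sema4d, ran the other way up to the granular layer. Its highest level was in upper suprabasal cells, 84.1 ± 2.79 CPM in males and 66.6 ± 3.23 in females. Basal cells held 44.5 ± 2.45 and 37.4 ± 2.28, and the lowest upper suprabasal mouse (79.9 and 61.5) was above the highest basal mouse (47.3 and 40.5). Terminally differentiated cells held 31.2 ± 5.99 and 18.1 ± 5.26, the lowest CPM of the keratinocytes. With trimmed-mean (TMM) scaling, which sets most genes level between populations, the fitted level was instead higher in terminal than in basal cells, by 1.14 in males and 0.72 in females on the log2 scale. A finer clustering split the terminal cells into a cluster led by Lce1 genes, with 11.5 CPM in males and 13.7 in females, and an Il1f6 cluster with 52.9 and 68.0. LCs held 48.3 ± 12.9 and 32.1 ± 4.41, near the basal level, and T cells 3 UMIs in males and 2 in females.

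Plxna2, which binds Sema6a and, with neuropilins, class 3 semaphorins, was highest in basal cells of females and in basal and migratory cells of males. Basal cells held 23.1 ± 1.70 CPM in males and 78.2 ± 5.89 in females, upper suprabasal cells 8.36 ± 0.470 and 25.5 ± 1.63, and terminal cells 3.81 ± 1.86 and 10.8 ± 2.67. The 3 populations did not overlap between mice of a sex. LCs held 14.9 ± 6.87 and 47.8 ± 9.10. T cells had no Plxna2 UMI among 251168 in males and 1 among 849957 in females, 1.18 CPM with an interval of 0.0298 to 6.56.

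Nrp2, the co-receptor preferred by Sema3c and Sema3f and also a receptor of Vegfc, was highest in the Tm4sf1 cluster, whose leading genes include Krt79 and Timp3. It held 27.9 ± 7.02 CPM in males and 50.2 ± 5.79 in females. Basal cells held 9.84 ± 1.19 and 26.3 ± 3.83, LCs 18.4 ± 3.37 and 17 ± 7.89, and terminal cells 2.19 ± 1.41 and 5.60 ± 2.24. T cells held no Nrp2 UMI in males, which with a floor of 3 UMIs allows up to 11.9 CPM and so a level like that of basal cells, and 1 in females, 1.18 CPM with an interval of 0.0298 to 6.56. Nrp1, the co-receptor of Sema3a and Vegfa, was low in every keratinocyte cluster. It stood at 6.85 ± 0.553 and 4.77 ± 1.33 in basal cells and at 0.518 ± 0.269 and 0.962 ± 0.331 in the Il34 cluster. Nrp1 reached 22.3 ± 32.3 CPM in male T cells from 5 UMIs and 13.8 ± 9.56 in female T cells from 13 UMIs. LCs held no Nrp1 UMI among 4308967 in males and 15 among 11740606 in females.

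Plxna4, known from sensory neurons as a Sema3a receptor with Nrp1, was close to the detection limit. Its highest keratinocyte level was 0.443 ± 0.290 CPM in male and 1.48 ± 0.946 in female migratory cells, and LCs and T cells held no Plxna4 UMI in either sex. A finer clustering gave 5.28 ± 2.58 in 740 female cells led by Lgr5, Lhx2 and Postn. Plxna3 lay at 1.45 to 5.16 CPM over the keratinocyte clusters of males and 1.53 to 5.16 of females. Plxnb3 did not pass 2.93 CPM anywhere, and its male T cell value came from 1 UMI.

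**Figure D1:**
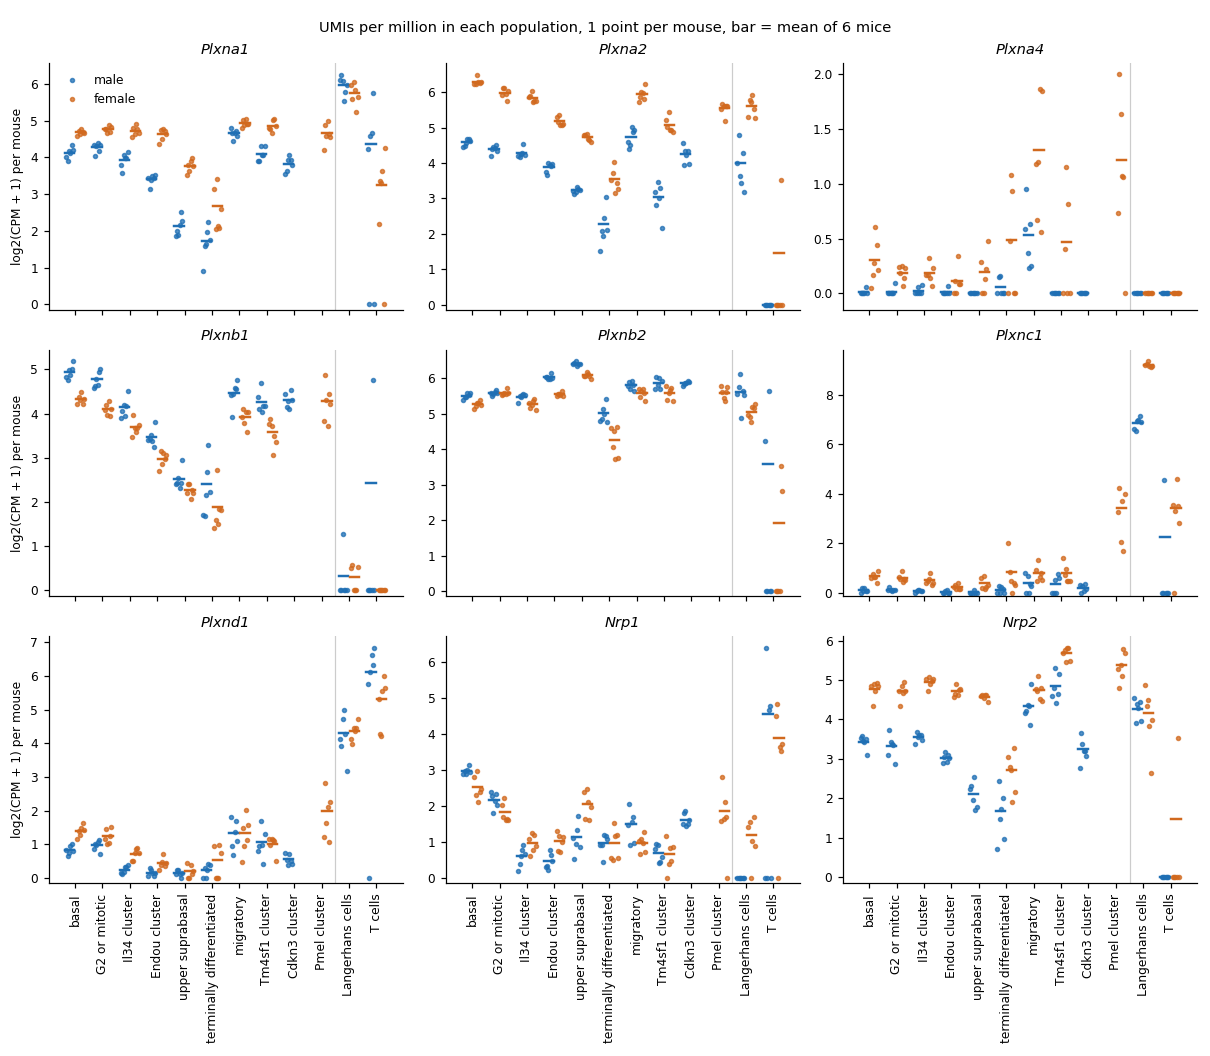
Levels of the 9 receptors as log2(CPM + 1) on the vertical axis, by population on the horizontal axis, with males in blue and females in orange. Each point is a mouse and each bar the mean of 6 mice, and the grey line parts keratinocyte clusters (left) from immune cells (right). Plxnc1 rises in LCs and Plxnd1 in T cells and LCs, Plxnb1 steps down from basal to terminal cells, and Plxnb2 peaks in upper suprabasal cells.

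The order of populations was compared between neighbours, for each gene and sex, with a two-sided exact sign-flip test over the 6 mice. Of 160 such comparisons, 43 had all 6 mice on the same side, which gave the smallest p that 6 mice allow (0.0312). None passed after Benjamini-Hochberg adjustment, with a smallest adjusted value of 0.116. With this smallest p, passing would have taken far more than 43 such comparisons. Plxnc1 in female LCs against the next population (597 and 9.86 CPM, 6 of 6 mice) also stood at 0.116. The neighbours were ranked by the same means, so the adjusted values do not decide the order. For Plxnb2 the Tm4sf1 and Cdkn3 clusters of males (57.3 and 57.1 CPM) and the basal cells and Il34 cluster of females (37.4 and 37.5) did not differ beyond the spread of the mice.

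Across all keratinocyte clusters, an edgeR quasi-likelihood F test with the mouse as a term called 7 of the 7 receptors tested in males and 9 of 9 in females. Between such clusters 98.6% of all genes tested were called in males and 97.2% in females, so the counts of receptors stand at the background.

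In terminally differentiated against basal cells Plxnb1, Plxna2 and Nrp2 were lower in both sexes, and Plxna1 and Nrp1 in males. In males 6 of 7 receptors tested were called, where 74.4% of all genes were, and in females 6 of 9, where 64.2% were. In a finer clustering the female count was 3 (Plxna2, Plxnb1 and Plxnc1), and the share of all genes called there is not given here. With TMM scaling, Plxnb1 fell by 1.23 on the log2 scale in males (95% interval -1.56 to -0.91, adjusted p 5.92e-06) and by 1.09 in females (-1.53 to -0.64, adjusted p 0.000126). Plxna2 fell by 1.01 and 1.10, with adjusted p 7.88e-06 and 4.25e-08. Plxna1 fell by 1.2 in males and stood at -0.42 in females, where its adjusted p was 0.0617. Plxnd1, with few UMIs in keratinocytes, stood at -0.64 (adjusted p 0.282) and 0.00. Nrp1 fell by 1.23 in males and stood at -0.64 in females (adjusted p 0.14), and Nrp2 fell by 0.57 and 0.49. The sign of Plxnb1, Plxna2, Plxna1, Nrp1 and Nrp2 was the same under the 4 other scalings or tools tried, but the Nrp2 call was lost with RLE size factors in males (-0.50, adjusted p 0.0589) and females (-0.34, adjusted p 0.0962) and with DESeq2 in females (-0.34, adjusted p 0.145).

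The scale of this comparison carries a limit. The 10 most abundant genes took 28.3% of terminal UMIs in males and 30.7% in females, against 10.8% and 8.49% in basal cells, and the median of all genes moved from -0.24 with TMM to -1.89 with library size alone in males and from -0.31 to -2.10 in females. Among called genes, the share that was higher in terminal cells went from 45.3% to 15.7% and from 42.8% to 13.8%, and with DESeq2 it was 53.3% in females. Plxnb2 was called higher in terminal cells with TMM, by 1.14 in males (0.89 to 1.4) and 0.72 in females (0.47 to 0.97), and lower with library size alone, at -0.53 and -1.08, values above that of the median gene under either scaling. In the finer clustering the female value was 0.31 and no longer called. The female calls for Plxnc1 (2.11, from 0.577 to 0.793 CPM) and Plxna4 (2.44, from 0.235 to 0.405 CPM) rested on few UMIs and were lost with library size alone, and Plxnc1 also without the first female HFD mouse (0.93, adjusted p 0.34) and without the highest doublet scores (0.33). The call for Nrp2 was lost when any of 5 of the 6 males was left out (the 3 RD mice and HFD mice 1 and 3), with values from -0.55 to -0.42, and in females without RD mouse 3 (-0.38) or HFD mouse 3 (-0.34).

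LCs against basal cells gave large contrasts. In males 7 of 8 receptors tested were called, where 67.7% of all genes were, and in females 8 of 8, where 77.2% were. Plxnc1 was higher in LCs by 10.4 on the log2 scale in males (9.94 to 10.9) and 9.94 in females (9.71 to 10.2). In males Plxnc1 passed the filter on low counts in no fit without LCs. Its male call and its place among the 8 tested thus rest on its LC counts. Plxnd1 was higher by 4.42 (3.83 to 5.01) and 3.54 (3.16 to 3.91), and Plxna1 by 1.73 (1.48 to 1.99) and 1.06 (0.85 to 1.27). Plxnb1 was lower, at -7.10 (-8.00 to -6.20) and -6.22 (-6.89 to -5.54), and Plxna2 stood at -0.80 and -0.76. Nrp2 went opposite ways, 0.75 higher in male and 0.63 lower in female LCs (-0.63 on the log2 scale), and the sexes cannot be told apart here from the counting software. Nrp1 had no UMI in male LCs, at least 9.84-fold lower than in basal cells with a floor of 3 UMIs over the group, and was at -1.92 in females. Plxnb2 differed little, at -0.06 in males (adjusted p 0.688) and -0.25 in females (adjusted p 0.0195), and the female call was lost without HFD mouse 1 (-0.23) or 3 (-0.19) and with no keratin limit (-0.02).

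T cells against basal cells had the fewest UMIs behind them. In males 4 of 7 receptors tested were called, where 26.6% of all genes were, and in females 8 of 8, where 44.9% were. Plxnd1 was higher by 5.94 (4.70 to 7.18) in males and 4.34 (3.46 to 5.22) in females. Plxnb1 was lower in males, where T cells held 1 UMI, and had no UMI in females, at least 5.40-fold lower. Plxna2 was at least 1.93-fold lower in males and at -6.25 in females, and Plxnb2 was at -2.36 (-3.68 to -1.04) and -4.18 (-5.40 to -2.95). In females Plxna1 was lower (-1.78), Nrp2 was lower (-4.71) and Plxnc1 higher (3.78). Nrp1 was higher by 1.36 in females (0.30 to 2.42, adjusted p 0.0287), and this call was lost without RD mouse 1 or 3 (1.33 and 1.38) and without HFD mouse 1 or 2 (1.22 and 1.09), as well as with TMM factors from all genes (1.17, adjusted p 0.0565), with a keratin limit of 5% (0.90) and with none (1.2). With library size alone, the share of called genes that were higher in T cells went from 43.9% to 65.4% in males and from 45.0% to 55.5% in females, with the median of all genes in males moving from -0.48 to 0.0036. With TMM factors from all genes the share was 29.2% in males. The called receptors had the same sign under each of these scalings, though female Nrp1 was not called under the last.

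**Figure D2:**
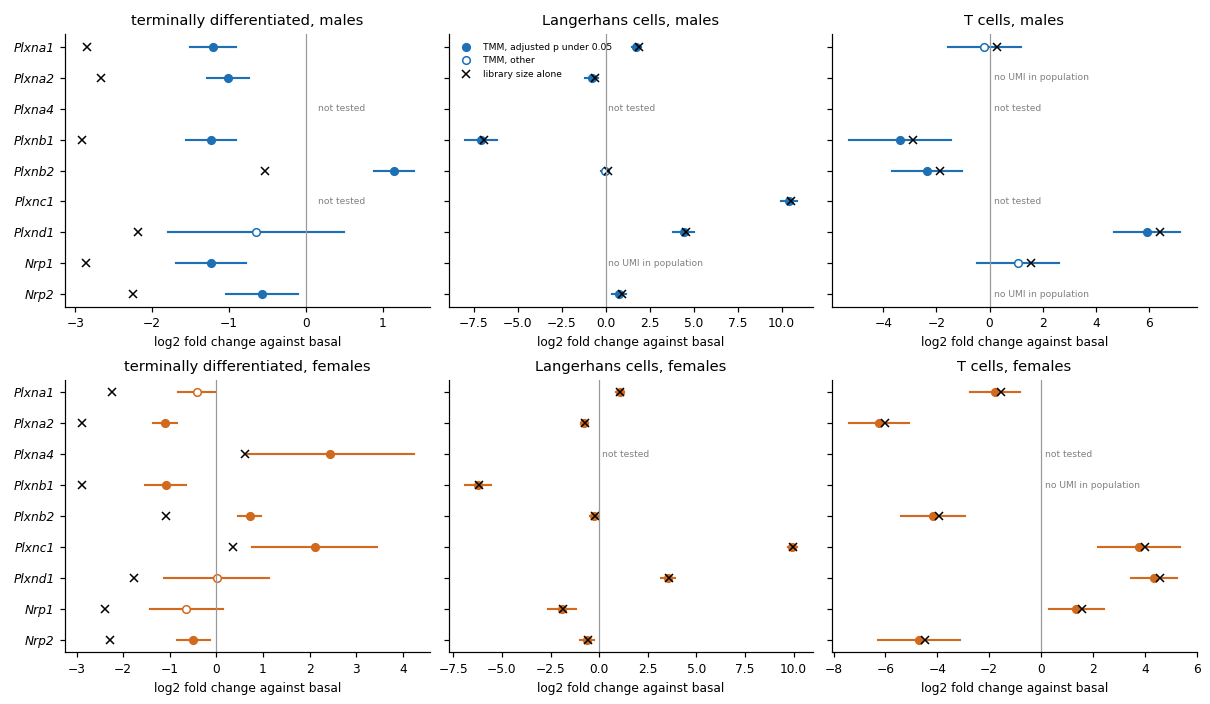
Log2 fold change of each receptor against basal cells (horizontal axis) in terminally differentiated cells, LCs and T cells, males above and females below. Circles with 95% intervals are the TMM-scaled edgeR estimates, filled where the adjusted p was under 0.05, and crosses are the estimates with library size alone. In terminal cells the crosses lie to the left and Plxnb2 changes side, while in LCs and T cells circle and cross of a called receptor lie on the same side.

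Ccr7-bearing LCs were few, 15 cells in males and 84 in females. No difference between them and the other LCs passed after adjustment over 8 tests. With 6 female and 5 male mice, even the smallest possible p values would not have passed it. In female mice Nrp2 was at 110 ± 82.1 CPM in Ccr7 LCs and 12.2 ± 4.25 in the other LCs, higher in 6 of 6 mice (two-sided exact sign-flip p 0.0312, the smallest possible, adjusted 0.2). In males it was at 172 ± 149 against 16.4 ± 3.22, higher in 4 of 5 mice (exact p 0.312, adjusted 0.417). Plxnd1 was at 62.9 ± 25 against 17.1 ± 5.27 in females, higher in 5 of 6 mice (exact p 0.0625, adjusted 0.2). In males it was at 267 ± 185 against 16.5 ± 6.67, higher in 4 of 5 mice (exact p 0.125, adjusted 0.2). These male values of Nrp2 and Plxnd1 rest on 0 to 5 UMIs per mouse. Of the 5 males, 1 had no Nrp2 and another no Plxnd1 UMI in its Ccr7 LCs. In females Plxnc1 was at 612 ± 210 against 597 ± 30.1, and Plxna1 at 36.2 ± 19.9 against 53.3 ± 11.1. In males Plxnc1 was at 238 ± 236 against 119 ± 18.0, and Plxna1 at 13.5 ± 30.3 against 59.9 ± 9.91.

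The genes most like each receptor over the 10 populations found in both sexes were sought among 9798 genes, as a description with no test, since all populations come from the same libraries. Plxnc1 ran most closely with Rgs18, Lmo2 and Aif1 (mean Pearson r over the sexes of 0.997, 0.994 and 0.991), and Plxnd1 with Lgals1, Ube2j1 and Crem (0.994, 0.990 and 0.989). Plxnb1 ran with Stox2, Fam81a and Grhl2, the last a transcription factor of epithelia (0.987, 0.981 and 0.979). Plxnb2 ran with Ctnnd1, which encodes p120 catenin of cell junctions, Clybl and Dnase2a (0.961, 0.960 and 0.957). Plxna1 was followed by Ensa, Zc3h10 and Marveld2 (0.963, 0.957 and 0.949), Plxna2 by Pla2g4a, Fam83f and Ift43 (0.967, 0.958 and 0.948), Nrp2 by Cx3cl1, Myof and Rab7b (0.960, 0.949 and 0.937) and Nrp1 by Thy1, Cntn1 and Stambpl1 (0.921, 0.887 and 0.864). Among the receptors themselves, Plxnc1 and Plxnd1 had r of 0.73 in males and 0.78 in females, and Plxnb1 and Plxnc1 -0.79 and -0.72.

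The ligands were described with lists of 20 semaphorins, 6 other neuropilin ligands, 15 co-receptors and partners and 34 effectors. In terminal against basal cells, 7 of 13 semaphorins tested were higher and 6 lower in each sex, with a median log2 change of 1.5 in males and 1.02 in females beside -0.24 and -0.31 for all genes. These counts hold for TMM scaling, since with the library size alone the median of all genes was -1.89 and -2.10. Of the semaphorins called higher, Sema6d was lower in CPM in both sexes, at 0.809 in terminal and 0.866 in basal cells of males and 1.36 and 1.38 in females. In females Sema4d (16.4 and 24.0) and Sema4a (7.15 and 12.1) were also lower in CPM. Sema6a, a ligand of Plxna2 and Plxna4, rose from 0.425 ± 0.137 CPM in basal to 34.1 ± 3.97 in terminal cells of males and from 11.2 ± 2.93 to 94.2 ± 14.3 in females. Sema3c, a class 3 ligand, went from 149 ± 12.7 to 11.3 CPM and from 147 ± 16.8 to 11.2. Plxna2 and Sema3c were thus higher in the basal and Sema6a in the terminal population. Sema7a, the ligand of Plxnc1, was itself highest in LCs, with 50.3 ± 13.6 CPM in males and 113 ± 11.6 in females, and stood at 10.1 and 4.00 in terminal cells. Sema6d, a ligand of Plxna1, stood at 139 ± 19.5 and 218 ± 27.9 CPM in LCs and 0.866 and 1.38 in basal cells. Sema3e, the ligand of Plxnd1, was found mainly in migratory keratinocytes, with 22.1 ± 2.98 and 57.5 ± 13.8 CPM. Sema3e is also on the marker list that named this population, so its place there is not independent of the naming.

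In LCs against basal cells 5 of 13 semaphorins tested were higher and 6 lower in males, and 4 of 14 and 10 in females, with medians of -0.43 and -1.68 (-1.4 with genes without UMIs at their bound) beside -0.09 and -0.15 for all genes. Sema4f stood at 12.3 ± 5.35 and 20.7 ± 6.00 CPM in LCs and at 0.00842 and 0.0307 in basal cells. Of the other neuropilin ligands 3 of 5 were higher and 2 lower in each sex. Pgf, which encodes placental growth factor, stood at 179 ± 52.8 and 316 ± 59.3 CPM in LCs, and Vegfa at 172 ± 38.4 and 224 ± 43.3. Of the co-receptors and partners 3 were higher and 8 lower in each sex, of 11 tested in males and 13 in females. Tyrobp stood at 1984 ± 77.9 and 1266 ± 80.2 CPM in LCs, and Trem2, of the same list, at 3.93 ± 9.62 and 0.421 ± 1.03. Met was at 0.640 ± 0.478 in female LCs and at 56.4 ± 8.45 in female basal cells. The effectors split more evenly, with 14 of 30 higher and 12 lower in males and 15 of 32 each way in females, among them Dpysl2 (9.30 and 8.87 higher) and Fyn (7.82 and 6.79 higher). In T cells, 3 of 10 semaphorins were higher and 3 lower in males and 3 of 11 and 5 in females, led by Sema6d at 75.2 ± 44.3 and 226 ± 56.9 CPM. Of all genes, 26.6% and 44.9% were called there. The semaphorin medians were -1.13 in males (0.15 with genes without UMIs at their bound) and -0.42 in females, beside -0.48 and -0.24 for all genes. By size of the fitted change, the called genes of the lists in terminal cells of males also included Tyrobp, Fyn, Fes, Sema3e, Plxdc2, Sema4g, Rhod and Sema4d, and of females Tyrobp, Sema3e, Rhod, Sema4g, Plxdc2, Fyn, Dpysl2 and Mical2, each higher than in basal cells, with Rhod at 52.3 and 45.6 CPM and Plxdc2 at 57.0 and 66.7. Tyrobp stood at 2.13 ± 1.05 CPM in male and 2.57 ± 3.53 in female terminal cells, far below its LC level. Dpysl2 was highest in LCs of both sexes, and Fyn in T cells of males and LCs of females. In LCs Fes was higher in males (75.4 CPM), Vegfd lower in females (0.0702 against 11.2 CPM), and Sema5a and Met lower in both. T cells of males had no UMI of Sema3c, Dpysl3, Erbb2, Sema3d, Sema5a, Mical3, Mras or Met. Those of females had none of Sema3c, Sema5a, Flt1, Erbb2, Sema3f, Mst1r or Vegfd. All were called lower than in basal cells. With a floor of 3 UMIs a male zero allows up to 11.9 CPM. Male basal cells held 12.4 CPM of Met, 15.3 of Sema5a, 16.1 of Sema3d and 16.5 of Erbb2, so levels close to these remain possible. Crmp1 was higher in T cells of both sexes, at 34.8 and 36.5 CPM, and so were Fyn and Dpysl2.

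**Figure D3:**
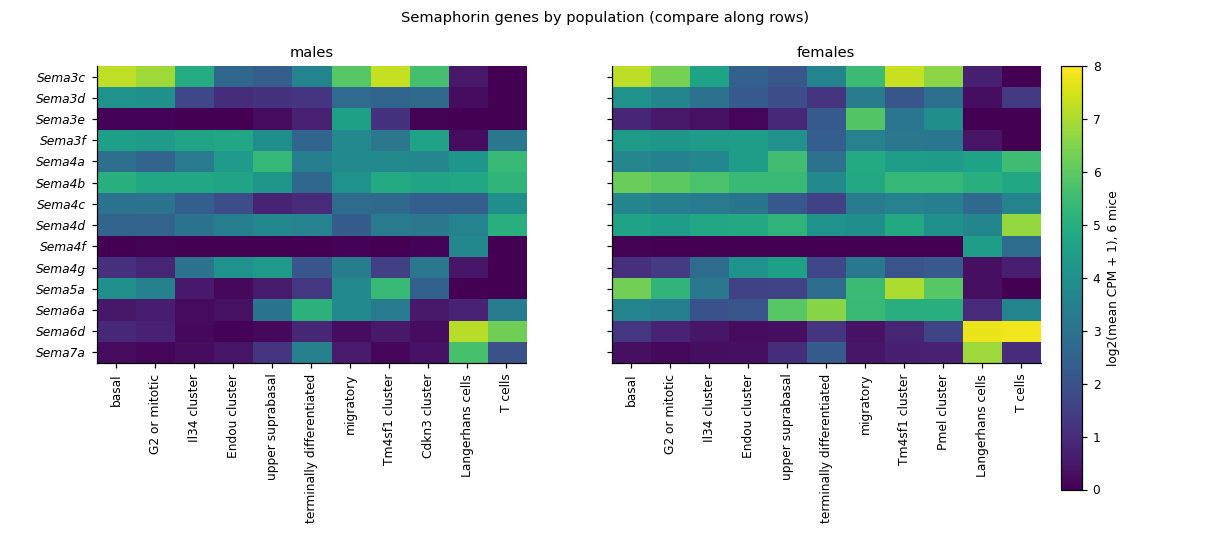
Mean level of the semaphorin genes with at least 5 CPM in some population, as log2(CPM + 1) in colour, by population for males (left) and females (right), 6 mice each. Rows can be compared along themselves but not with each other. Sema3c is bright in basal and Tm4sf1 cells, Sema6a in terminal cells, Sema3e in migratory cells, and Sema6d and Sema7a in LCs.

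HFD moved no receptor past the edgeR test at an adjusted p of 0.05, and DESeq2 called 0 in either sex as well. In males 0 of 58 tests of a receptor in a population passed. Of all genes, 0.252% passed in LCs, 0.00909% in migratory cells, 0.0109% in the Tm4sf1 cluster, 0.0091% in the Cdkn3 cluster and 0% elsewhere. In females 0 of 62 receptor tests passed. Of all genes, 1.1% passed in basal cells, 1.53% in G2 or mitotic cells, 1.45% in the Il34 cluster, 4.01% in the Endou cluster, 0.16% in upper suprabasal cells, 0.351% in migratory cells, 0.0864% in the Tm4sf1 cluster, 1.03% in LCs and 0% elsewhere. At an unadjusted p under 0.05 there were 3 receptor tests in males (5.17%, against 8.39% of all gene tests) and 7 in females (11.3%, against 15.2%). Of the receptors too low to be fitted in a population, only Plxnd1 in T cells is given below by its values. Plxna4 was fitted in no population, and its values by diet are not given here.

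Plxnb2 had narrow intervals in basal cells. In basal cells the RD males were at 46.9, 45.3 and 47.3 CPM and the HFD males at 40.9, 43.3 and 43.2. The HFD males were all lower, where 13.2% of genes did not overlap in one direction or the other, but the change was -0.08 on the log2 scale (-0.24 to 0.07, adjusted p 0.866). In female basal cells the diets overlapped, and the change was -0.10 (-0.26 to 0.07, adjusted p 0.568). Over the populations tested, which come from the same 6 mice of a sex, the estimates of Plxna1 were negative in 8 of 10 in each sex. Those of Plxna2 were negative in 7 of 10 in males and positive in 8 of 10 in females. Plxnb1 was negative in 8 of 9 in males and positive in 5 of 8 in females, and Nrp2 positive in 9 of 10 in males and negative in 7 of 10 in females. Nrp1 was positive in 5 of 5 in females and negative in 3 of 5 in males. Plxnb2 was negative in 5 of 10 in males and 6 of 10 in females. Plxnd1 was negative in 3 of 3 in males and 5 of 5 in females.

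In male migratory keratinocytes Plxna2 was at 31.4, 28.7 and 29.7 CPM on RD and 23.1, 20.1 and 22.0 on HFD. The diets did not overlap, as for 11.2% of genes there, and the change was -0.43 (-0.70 to -0.16, adjusted p 0.586). The mitochondrial shares of these cells did not overlap either, at 3.01 to 3.32% on RD and 3.38 to 3.55% on HFD, and their part in the Plxna2 values was not tested. In the female Il34 cluster it was at 52.3, 52.6 and 53.2 on RD and 57.6, 59.2 and 65.3 on HFD. Again the diets did not overlap, in the opposite direction, at 0.18 (0.03 to 0.33, adjusted p 0.203), where 22% of genes did not overlap. The median cell of a mouse there had 7999.5 to 10859 UMIs on RD and 10973 to 12325 on HFD, without overlap, and the part of depth was not tested. In the female Endou cluster Plxna2 stood at 0.16, and without the second HFD mouse it was called at 0.24 (adjusted p 0.0395) together with Plxna1 at -0.28 (adjusted p 0.0476). Of all genes, 4.01% were called in this cluster with all mice, and the share without that mouse is not given here.

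In male terminal cells Plxnb1 was at 5.34, 8.68 and 3.63 CPM on RD and 2.25, 2.21 and 3.41 on HFD. All HFD mice were lower, by 0.73 on the log2 scale (-1.33 to -0.13, adjusted p 0.153). Plxna1, Plxna2 and Nrp1 also did not overlap there, so that 4 of 6 receptors with at least 20 UMIs were lower in every HFD mouse, where 28.1% of all genes did not overlap in one direction or the other. The Lce1 and Il1f6 parts of the terminal population differed in their receptor levels, and their part in this comparison was not tested. Over all male populations 17 of 64 such comparisons did not overlap (26.6%, against 13.7% of all genes and 10.3 to 28.1% by population). Over the female populations 13 of 73 did not (17.8%, against 19.0% of all genes and 11.7 to 25.4% by population, with 19.9% in basal cells). These totals count the same receptors again in populations of the same mice, so the comparisons within a sex are not independent. In the male Il34 cluster 3 of 7 receptors did not overlap, against 12.8% of all genes. Nrp1, low there, was among them, with the largest diet estimate of any receptor (-1.09, adjusted p at least 0.623). In the female Tm4sf1 cluster 3 of 5 did not overlap, against 16.0% of all genes. In the male terminal cells both quality measures overlapped between the diets, with 9275 to 18911 UMIs in the median cell of a mouse on RD and 13949 to 24723 on HFD, and 0.909 to 1.39% and 0.919 to 1.18% mitochondrial UMIs. In male basal cells they did not overlap, with 4483.5 to 7315 UMIs on RD and 8034 to 10004.5 on HFD and mitochondrial shares of 3.27 to 3.58% and 3.59 to 3.80%. The part of these in the receptor values was not tested.

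Plxnd1 in T cells was at 97.3, 78.8 and 114 CPM in RD males and 52.8, 0 and 68.4 in HFD males, from 11 and 6 UMIs. In females it was at 45.9, 63.2 and 48.5 on RD and 39.1, 18.4 and 17.7 on HFD, from 18 and 15 UMIs. The HFD mice were all lower in both sexes, at the smallest p that 3 against 3 mice allow (two-sided exact permutation p 0.1 in each). Male RD mouse 2 and male HFD mice 1 and 3 each stood at the level of 3 UMIs, so their values differ only by their totals. Among the females, an HFD mouse held the most UMIs, 11. Of the genes with at least 20 UMIs in female T cells, 11.7% did not overlap in one direction or the other. Male Plxnd1, with 17 UMIs, lies outside the genes so counted in male T cells, of which 10.6% did not overlap. The median T cell of a mouse had 1960 to 2888 UMIs on RD and 3209.5 to 4403 on HFD in females, with 1.25 to 1.44% and 1.74 to 2.04% mitochondrial UMIs. In males it had 1014 to 1716 UMIs on RD and 1827 to 2114 on HFD, with mitochondrial shares that overlapped. The part of these in the Plxnd1 values was not tested. With 0 to 11 UMIs per mouse the gene did not pass the filter on low counts, and fewer cells of a kind and less RNA per cell cannot be told apart.

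In female LCs Nrp2 was at 13.1, 5.18 and 14.7 CPM on RD and 28.3, 19.1 and 21.5 on HFD. In female LCs 3 of 6 receptors with at least 20 UMIs did not overlap (Nrp2, Plxnb2 and Plxnc1), where 17.1% of all such genes did not. For Nrp2 every HFD mouse was above every RD mouse, by 0.96 on the log2 scale (0.37 to 1.55), with an adjusted p of 0.12 that ranged from 0.00659 to 0.537 over 17 alternatives and passed in the one with no filter on low counts. The endothelial list, with Cdh5 and Kdr at 0, also differed in these cells, at 4.44 to 6.74 CPM on RD and 8.45 to 12.9 on HFD, and its part in the Nrp2 values was not tested. In the LCs without Ccr7 the RD mice were at 11.8, 4.98 and 11.8 and the HFD mice at 18.2, 13.5 and 12.9 (exact permutation p 0.1). Male LCs held 17.9 ± 3.11 on RD and 18.8 ± 4.26 on HFD. Plxnb2 was lower in female HFD LCs, at 35.4, 34.8 and 37.5 on RD and 29.9, 29.2 and 26.0 on HFD (-0.36, adjusted p 0.345). In male LCs Plxnb2 was at 28.3, 48.4 and 45.4 on RD and 46.4, 53.4 and 68.0 on HFD. The male diets overlapped, and the estimate went the other way (0.45, -0.04 to 0.94, adjusted p 0.645). Plxna1 in male LCs went from 45.5, 54.2 and 61.6 on RD to 67.4, 75.4 and 66.6 on HFD (0.37, adjusted p 0.642), without overlap, as for 12.6% of genes in male LCs. Plxnc1 in female LCs was at 581, 560 and 578 on RD and 600, 604 and 659 on HFD. The HFD females were all higher, but the change was 0.10 (adjusted p 0.702), and in males it was -0.33 (adjusted p 0.6). The female LCs had 1.16 to 1.29% mitochondrial UMIs on RD and 1.5 to 1.64% on HFD, and the male LCs 2.25 to 2.32% and 2.85 to 2.96%. Their part in these differences was not tested.

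**Figure D4:**
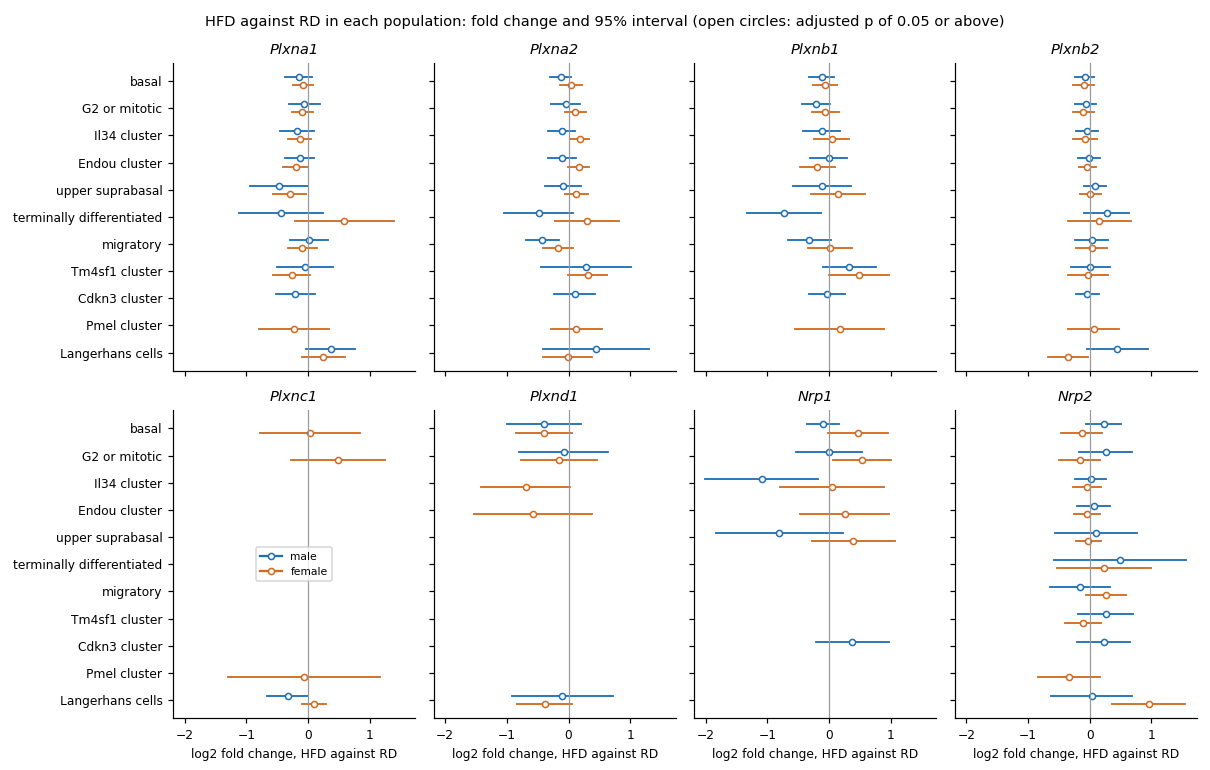
Log2 fold change of HFD against RD (horizontal axis) with its 95% interval for 8 receptors in each population where the gene was tested, males in blue and females in orange. All circles are open because no adjusted p was under 0.05. No receptor was tested in T cells. Most intervals of Plxnb2 are narrow. Nrp2 in female LCs (0.96) lies farthest to the right and Nrp1 in the male Il34 cluster (-1.09) farthest to the left.

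**Figure D5:**
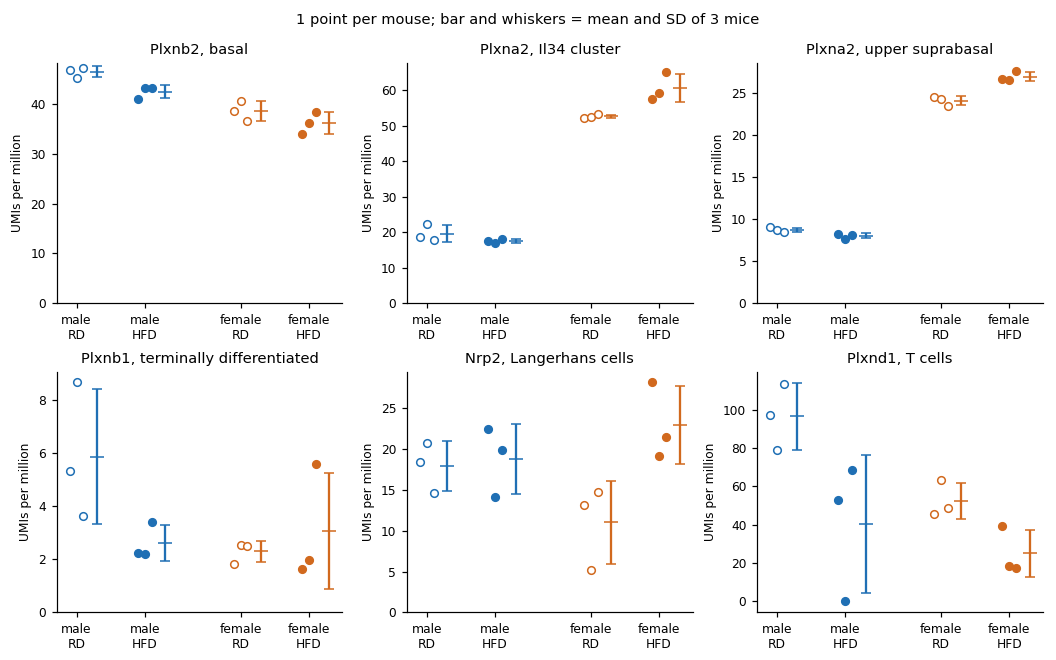
CPM in each mouse (vertical axis) by sex and diet for 6 pairs of receptor and population, with RD open and HFD filled, and mean and SD of 3 mice beside the points. HFD mice lie above all RD mice for Nrp2 in female LCs and below them for Plxnd1 in T cells of both sexes. The T cell values rest on few UMIs. Plxnb2 in male basal cells moves by -0.08 on the log2 scale.

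The interaction of diet and sex, fitted over all 12 mice, called 0 of 57 receptor tests. Of all genes it called 0.0415% in basal cells, 0.0213% in G2 or mitotic cells, 0.0516% in upper suprabasal cells, 0.113% in migratory cells, 0.028% in the Tm4sf1 cluster and at most 0.323% in any population. At an unadjusted p under 0.05 there were 8 (14.0%, against 11.7% of all gene tests). The lowest was Plxnb2 in LCs, where the HFD change was lower in females by 0.78 on the log2 scale (-1.34 to -0.22, adjusted p 0.521).

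Among the lists of ligands, partners and effectors, 3 genes passed in a diet comparison, all of them effectors, lower on HFD and in females, out of 292 female and 263 male effector tests. The shares of all genes called in their populations were 1.45% in the Il34 cluster, 0.351% in migratory cells and 1.03% in LCs, so the count stands near the background. Mras, a small GTPase, went from a mean of 13.4 to 9.20 CPM in the Il34 cluster (-0.57, adjusted p 0.0371). The collapsin response mediator genes Dpysl3 and Dpysl2, whose proteins act downstream of semaphorins on microtubules, went from 158 to 116 CPM in migratory cells (-0.47, adjusted p 0.0405) and from 465 to 355 in LCs (-0.40, adjusted p 0.0469). No semaphorin, neuropilin ligand or co-receptor passed in either sex, in 89 and 103 tests of semaphorins in males and females.

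Between the sexes, basal levels stood at 23.1 and 78.2 CPM for Plxna2, 9.84 and 26.3 for Nrp2 and 16.4 and 24.7 for Plxna1, males first, while Plxnb1 was at 29.9 and 19.1. On the log2 scale females minus males these are 1.72, 1.33, 0.56 and -0.62. Plxnc1 in LCs differed by 2.35. The gene bodies of Plxna2 and Plxnc1 are 91.4% and 94.6% intron and that of Plxnb1 60.9%, and the median of all genes in basal cells went from -0.0028 where introns take under 60% of the gene to 1.08 where they take over 90%. Nrp1, with 93.2%, was at -0.44 in basal cells. Sex and the version of the counting software cannot be told apart in these levels.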

How the data were processed

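Raw counts of UMIs per gene and cell, as deposited by the authors for each library, were used. The headers name Cell Ranger 6.1.0 for the males and 7.2.0 for the females, while the submitters' processing notes name Cell Ranger 7.2.0 and Seurat 5.0.0, with mm10. Whether introns were counted is not given in the sources used here. The authors' filters were followed: a cell was kept with 200 (males) or 500 (females) to 6000 genes detected and a mitochondrial share no higher than 5%. Cells were clustered on 2000 variable genes, 10 principal components and 20 neighbours (leidenalg 0.10.2, Python 3.11.15) and named from markers. Doublets were scored with simulated doublets and kept, and removing the highest scores was an alternative.

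UMIs were summed per mouse and population, with at least 10 cells per mouse. Sums were tested with edgeR 4.0.16 (quasi-likelihood, R 4.3.3) over all genes, with TMM factors, a filter on low counts and Benjamini-Hochberg adjustment at 0.05. Comparisons of populations had the mouse as a term, and their TMM factors came from genes with at least 10 UMIs seen or awaited in every population. This departs from the planned factors over all genes and was chosen after counts simulated for T cells gave many false calls. DESeq2 1.42.0, other scalings and filters, and leaving out each mouse were alternatives. Single values were compared with exact permutation or sign-flip tests. Labels number the replicates, and the authors describe them as mice.

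The receptors and gene lists were chosen with earlier results of these data known. The text names all receptors, the other plexins, the 3 genes most like each receptor, and up to 10 called list genes per comparison. A gene without UMIs was given a floor of 3 UMIs over the group. Promoters are from RefSeq on GRCm38.p6.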

Additional observations from a re-analysis of the deposited data

Results flagged for a closer look

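The values of Plxna2 lay on opposite sides with diet in the sexes in 2 populations, in that every HFD male was below every RD male and every HFD female above every RD female. Of all genes with at least 20 UMIs, 28.1% in males and 12.1% in females did not overlap between the diets in terminally differentiated cells, and 14.3% and 20.2% in upper suprabasal cells. In terminally differentiated cells the males were at 4.42, 7.21 and 3.32 CPM on RD and 1.87, 3.21 and 2.82 on HFD, and the females at 7.94, 9.92 and 8.68 on RD and 10.6, 12.2 and 15.3 on HFD. The HFD change was higher in females by 0.70 on the log2 scale (edgeR interaction, adjusted p 0.18). In upper suprabasal cells the males were at 9.02, 8.65 and 8.50 on RD and 8.22, 7.66 and 8.12 on HFD, and the females at 24.5, 24.3 and 23.4 on RD and 26.6, 26.5 and 27.5 on HFD. There the change was higher in females by 0.19 (adjusted p 0.543). Neither difference passed the adjustment. The mitochondrial shares did not overlap between the diets in female terminally differentiated cells, at 0.386 to 0.475% on RD and 0.512 to 0.639% on HFD, or in male upper suprabasal cells, at 1.82 to 2.06% and 2.10 to 2.27%. The endothelial list, with Cdh5, Kdr, Tek and Emcn at 0, summed to 2.24 to 3.43 CPM on RD and 4.69 to 6.34 on HFD in the female terminally differentiated cells, and to 6.41 to 8.49 and 8.90 to 12.2 in the female upper suprabasal cells, where Cdh5 was at 0 on both diets and Kdr and Emcn on HFD. The part of these measures in the Plxna2 values was not tested.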

How the results depend on the processing

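For named receptors, 601 alternative values had the direction and the side of the threshold of the reported one, 26 were no longer past it and 2 were reversed. The reversed values were Plxnb2 in terminal against basal cells with library size alone, a scaling chosen after seeing the data (-0.53 in males and -1.08 in females). The tally has no class for values that newly passed the threshold. Such values included Plxnd1 of both sexes and female Plxna1 and Nrp1 in terminal against basal cells, all lower with library size alone. Nrp2 in male T cells newly passed with TMM factors from all genes. The count of receptors called in female terminal cells was 3 at resolution 0.6 instead of 6. Receptors called for diet in females numbered 1 with no filter on low counts and 0 to 2 when each mouse was left out, the 2 without the second HFD mouse. The shares of all genes called in these alternatives are not given here, so these counts have no background beside them. Deviations of same-numbered mice had correlations of -0.34 to 0.12 over 33 pairs in females, 1 over 0.1, and -0.14 to 0.35 in males, 8 over 0.1. Mice of different numbers were not compared in this way, so these values do not decide whether the numbers pair the mice. A replicate block gave 0 receptors called for diet in males, 0 in females and 0 for diet by sex. Other clusterings put 83.0 to 95.7% of cells in the same population. T cells held at most 281027 UMIs per mouse, which limits what could be seen there, and 3 mice per diet allow no permutation p under 0.1.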
